A study of Mus musculus with 40 samples.

Results

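The comparison set 4T1 cells grown on collagen I against 4T1 cells grown on collagen IV, in both cases without T cells. 4T1 is a mouse mammary carcinoma line that came from a BALB/c tumour, and every group is this single line on tissue culture polystyrene. The members were the libraries labelled as 4T1 alone on either collagen in experiments 2 to 5, matched by experiment number, which gave 4 libraries on collagen I and 4 on collagen IV, 8 of the 40 libraries of the series. The collagen I wells and the collagen IV wells were each coated at 250 µg/ml, and uncoated wells of the same plastic served as the study's negative control. Each well received 10000 carcinoma cells per cm2 and was left overnight. Interleukin 2 at 30 U/mL was then added to all wells for 24 h, so the carcinoma cells of every group here were exposed to this cytokine. Loose cells were pelleted and joined to the trypsinised cells of their well before RNA was taken. Each library is thus the RNA of a whole well, and a change in the share of a kind of cell cannot be told apart from a change in RNA per cell. Co-cultures, drawn on near the end, had the same coats and cytokine plus C57Bl6 splenic T cells at 80000 per cm2.

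Collagen I is the main fibrillar collagen of connective tissue stroma, while collagen IV forms the flat network of basement membranes together with laminins. Epithelial cells hold both collagens through integrins that share the beta 1 chain, and through the discoidin domain receptors, and they hold laminin through other integrins. A mammary carcinoma touches collagen IV while it stays behind its basement membrane and meets collagen I in the stroma, where matrix metalloproteinases and the plasminogen activators open the matrix.

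The 8 libraries held 20.1 to 44.8 M assigned reads, and their 10 highest genes took 4.66% to 5.33% of the signal. Values are per M, the reads of a gene for each mega-read of library size, after the authors' scaling. A gene with no read in a library could still have a level of up to 0.0683 to 0.148 per M there (3 reads). Libraries of the same collagen differed by more than sampling noise (chi-square per degree of freedom of 11.2 to 56.4 over 12 pairs), so all 8 were kept as separate samples. Of 10 carcinoma markers, 9 averaged 1 per M or more over the 8 libraries, and Trp63 did not. The summed T cell markers lay at 3.20 to 4.93 per M on collagen I and 3.30 to 4.01 per M on collagen IV, with Cd3g at 0 in all 8 libraries. Only Lck and Trac averaged 1 per M or more, and neither passed. Lck averaged 1.76 per M on collagen I and 1.78 per M on collagen IV, and Trac 1.66 and 1.44 per M. Of 6 macrophage markers only Cd68 was tested, and it was higher on collagen I by 0.32 ± 0.09 (adjusted p = 0.0231), while the sum of the markers spanned 3.24 to 4.03 per M on collagen I and 2.47 to 4.15 per M on collagen IV. The Cd68 call was lost in 7 of 12 fits that left out libraries, with an adjusted p of up to 0.238. Fibroblast markers summed to 4.30 to 9.12 per M on collagen I and 4.71 to 7.77 per M on collagen IV, with Pdgfra the only one at 1 per M or more on average, and B cell and endothelial markers stayed under 0.5 per M in every library.

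Many genes differed between the collagens, nearly all of them by small amounts. Of 13776 genes tested, 1023 passed (7.43%), 698 of them higher on collagen I (5.07% of those tested) and 325 lower (2.36%). The test was limma on log2(value + 1), with the experiment as a term, at an adjusted p under 0.05. All differences below are collagen I minus collagen IV on this log2 scale, ± SE, which understates the change of genes near 0. The median size among the 1023 was 0.26, and 84 reached 0.5 or more, 61 higher and 23 lower. The sign was the same in all 4 experiments for 1016 of the 1023. Passing in a fit on these same wells makes this likely, so it is not separate evidence. Without regard to pairs, the 4 values on collagen I lay wholly above or below the 4 on collagen IV in 711 genes (5.16%), 393 of which passed. The split between the directions depended in part on scaling. After each library was brought to its median, 583 were higher and 449 lower, so that 56.5% of calls were higher in place of 68.2%.

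**Figure D1:**
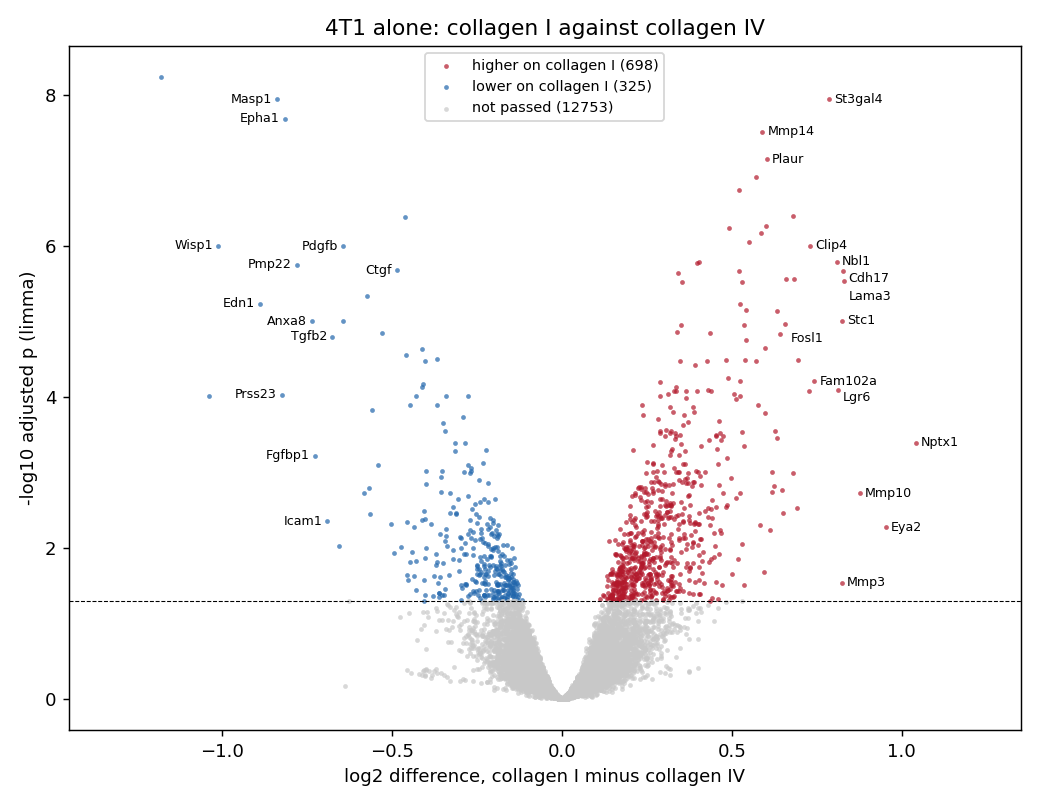
Each point is a gene in 4T1 cells without T cells. The horizontal axis is the log2 difference, collagen I minus collagen IV, and the vertical axis is −log10 of the limma adjusted p. Of 13776 genes, 698 were higher on collagen I (red), 325 were lower (blue) and 12753 did not pass (grey, under the dashed line at an adjusted p of 0.05); the highest difference was 1.04, for Nptx1.

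These calls lean on comparing wells within an experiment: without the experiment term 105 genes passed (93 higher, 12 lower). Leaving out experiments 2, 3, 4 and 5 in turn gave 607, 457, 389 and 613 genes. Leaving out single libraries moved the count by more than 1.5 times for collagen I in experiment 2 (527) and collagen IV in experiments 3 (591) and 4 (541). The labels also carry a library tag of unstated meaning, which was the same for both collagen wells within each experiment.

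Genes for matrix-degrading enzymes were among those most clearly higher on collagen I. Of 18 metalloproteinase genes tested, 6 rose (Mmp10, Mmp3, Mmp14, Mmp13, Mmp11 and Adam19), 1 fell (Adamts1) and 11 did not pass, with a median of 0.04 against 0.00 (0.0029) over all tested genes. The membrane-anchored collagenase gene Mmp14 (mm10 chr14:54431612-54445364) had 214, 183, 213 and 193 per M on collagen I in experiments 2, 3, 4 and 5, against 148, 124, 134 and 127 per M on collagen IV. The groups did not overlap, and the difference was 0.59 ± 0.04 (adjusted p = 3.09e-08). It also passed without the experiment term (adjusted p = 7.43e-05). Mmp11 (0.36, adjusted p = 0.00121) and Adam19 (0.32, adjusted p = 0.00249) rose less. Adamts1 fell by 0.36 (adjusted p = 0.00659), a call lost without experiments 3 and 4 (0.0625 and 0.104). In experiment 2 Adamts1 did not fall, at 331 per M on collagen I and 330 per M on collagen IV, and its groups overlapped.

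The stromelysin genes and the collagenase gene Mmp13 stand near each other on chromosome 9. Mmp10 (chr9:7502352-7510240), stromelysin 2, had 12.7, 8.34, 8.36 and 8.50 per M on collagen I, against 7.38, 3.68, 4.19 and 3.89 per M on collagen IV. Mmp3 (chr9:7445822-7455975), stromelysin 1, had 27.4, 23.9, 21.0 and 29.5 per M on collagen I, against 19.2, 12.4, 10.1 and 15.1 per M on collagen IV. In both genes every collagen I library lay above every collagen IV library. Mmp10 differed by 0.88 ± 0.17 (adjusted p = 0.00187) and Mmp3 by 0.82 ± 0.23 (adjusted p = 0.0286). The Mmp3 call was lost in 8 of the 12 fits that left out libraries, with an adjusted p of up to 0.154, and the difference there was 0.66 to 1.12. Mmp13 (chr9:7272514-7283331) was near the limit of the filter at 1.95 ± 0.47 per M on collagen I and 1.05 ± 0.50 per M on collagen IV (SD, n = 4 each), and its difference of 0.54 ± 0.15 (adjusted p = 0.0313) was lost in 9 of the 12 fits (adjusted p up to 0.16).

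The promoters of Mmp3, Mmp10, Mmp13 and Plaur, the urokinase receptor gene, are shown because they hold AP-1 letters. Fosl1 and Jun, which encode parts of the AP-1 transcription factor, differed between the collagens (below), and a link to these letters was not tested. Each stretch runs from 250 bases before to 50 bases after the RefSeq start on GRCm38.p6, 5′ to 3′ on the strand of the gene, with the AP-1 letters TGANTCA in capitals. The match lies 46 bases before the start in Mmp3 (chr9:7445572-7445871, plus strand), 63 in Mmp10 (chr9:7502092-7502391, plus), 35 in Mmp13 (chr9:7272264-7272563, plus) and 69 in Plaur (chr7:24462233-24462532, plus).
Mmp3: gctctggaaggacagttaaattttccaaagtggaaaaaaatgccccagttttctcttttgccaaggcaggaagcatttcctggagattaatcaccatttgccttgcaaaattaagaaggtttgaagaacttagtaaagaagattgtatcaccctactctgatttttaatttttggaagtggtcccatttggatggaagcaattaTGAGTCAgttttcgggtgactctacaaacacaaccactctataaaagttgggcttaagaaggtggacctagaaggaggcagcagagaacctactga
Mmp10: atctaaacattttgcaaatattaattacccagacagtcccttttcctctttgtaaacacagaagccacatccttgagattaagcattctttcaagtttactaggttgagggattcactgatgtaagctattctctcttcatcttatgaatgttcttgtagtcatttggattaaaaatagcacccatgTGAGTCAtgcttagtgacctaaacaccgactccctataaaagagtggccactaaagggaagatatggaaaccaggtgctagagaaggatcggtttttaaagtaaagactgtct
Mmp13: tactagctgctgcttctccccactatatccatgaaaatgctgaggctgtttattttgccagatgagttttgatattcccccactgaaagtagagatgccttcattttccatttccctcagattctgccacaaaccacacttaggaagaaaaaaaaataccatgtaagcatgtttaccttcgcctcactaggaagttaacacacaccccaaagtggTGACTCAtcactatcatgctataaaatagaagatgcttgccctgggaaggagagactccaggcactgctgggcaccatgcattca
Plaur: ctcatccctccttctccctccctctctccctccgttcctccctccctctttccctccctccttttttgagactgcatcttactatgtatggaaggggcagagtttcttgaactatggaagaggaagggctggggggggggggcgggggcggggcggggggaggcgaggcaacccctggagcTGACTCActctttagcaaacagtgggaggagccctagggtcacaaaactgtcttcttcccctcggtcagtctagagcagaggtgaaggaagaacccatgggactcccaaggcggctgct
Both strands of these letters read alike, and the motif was chosen after the values were seen. Of 12 called members of the metalloproteinase and plasminogen lists, 10 had a promoter in the RefSeq table, and 5 of them held the letters in at least 1 window (the 4 shown, and Adam19 in 1 of its 3 windows). The share per window over all 32851 promoter windows of this length was 7.81%. Mmp14, Mmp11, Timp2, Serpine2 and Adamts1 held no match in this window. A match describes the letters and is not evidence of binding.

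The plasminogen system showed the urokinase-type activator and its receptor higher on collagen I. Of 12 inhibitor and plasminogen genes tested, 4 rose (Plaur, Plau, Serpine2 and Timp2), 1 fell and 7 did not pass, with a median of 0.16.

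Plaur (chr7:24462484-24475968), the urokinase receptor gene, had 170.1, 142, 134 and 124 per M on collagen I, against 116, 97.2, 88.9 and 74.0 per M on collagen IV, and the groups did not overlap (0.60 ± 0.05, adjusted p = 7.07e-08, and 0.0531 without the experiment term). Its ligand Plau, the urokinase-type activator, had 258, 178, 172 and 160 per M on collagen I, against 193, 123, 116 and 106 per M on collagen IV, a difference of 0.52 ± 0.07 (adjusted p = 9.63e-05, and 0.241 without the experiment term) with overlapping groups. Timp2 inhibits metalloproteinases and takes part in the activation of Mmp2 by Mmp14, and Mmp2 was not among the genes tested here. Timp2 had 494, 497, 452 and 507 per M on collagen I, against 376, 375, 338 and 385 per M on collagen IV. Its groups were wide apart, at 0.40 ± 0.04 (adjusted p = 1.61e-06, and 0.000126 without the experiment term). Serpine2, another serine protease inhibitor gene, averaged 7.18 ± 2.78 per M on collagen I and 4.92 ± 1.86 per M on collagen IV (SD, n = 4 each). Its difference of 0.45 ± 0.11 (adjusted p = 0.00941) was lost without experiment 4 (adjusted p = 0.116) and without collagen I of experiment 2 (adjusted p = 0.0586).

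**Figure D2:**
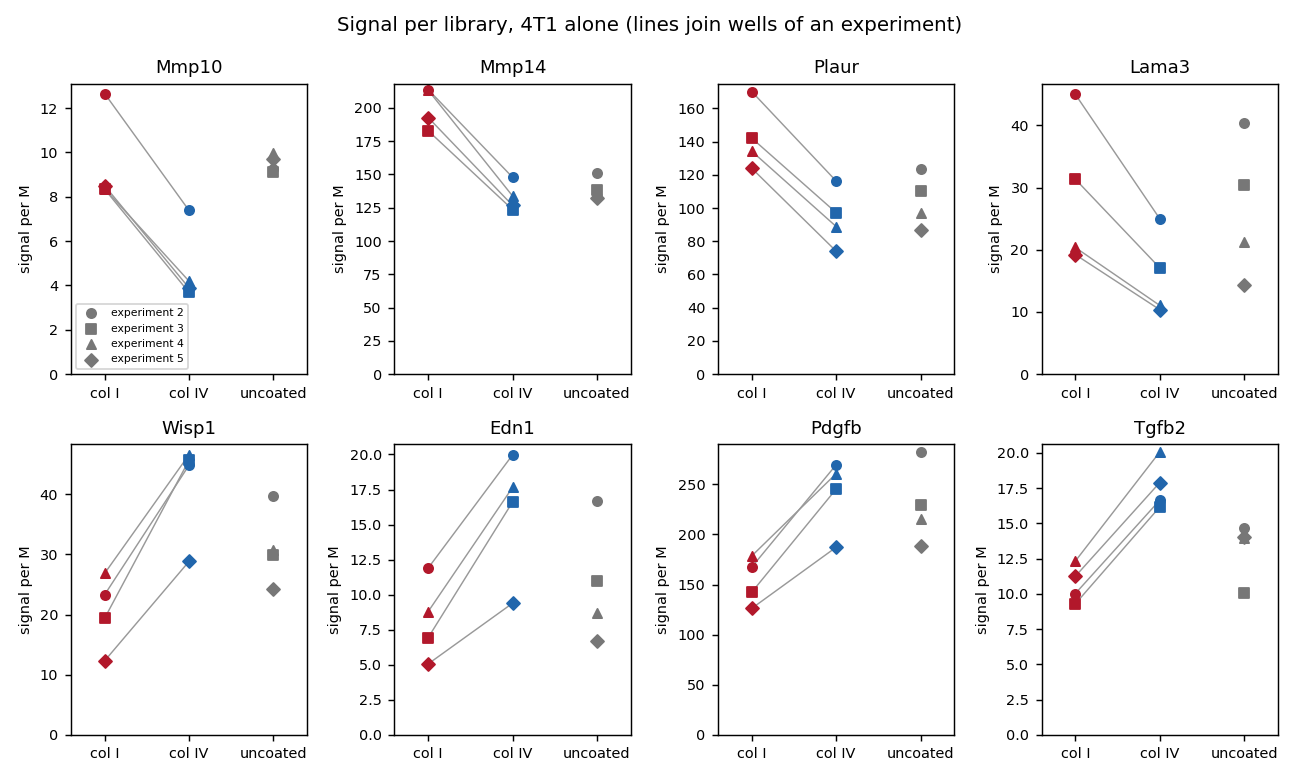
Signal per M in each library of 4T1 alone for 8 genes, on collagen I (red), collagen IV (blue) and uncoated plastic (grey), with a marker shape for each of experiments 2 to 5 and lines joining the collagen wells of an experiment. All lines fall towards collagen IV for Mmp10, Mmp14, Plaur and Lama3 and climb towards it for Wisp1, Edn1, Pdgfb and Tgfb2.

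The collagen receptors themselves differed little. Of 7 tested, 2 rose and 5 did not pass (median 0.07). Itga2, the alpha 2 integrin chain that binds fibrillar collagen, had 200.3, 165, 147 and 148 per M on collagen I, against 172, 161, 114 and 119 per M on collagen IV. The groups overlapped, and the difference of 0.23 ± 0.06 (adjusted p = 0.0129) was lost in 5 of the 12 fits without libraries (adjusted p up to 0.101). Cd44, a receptor for hyaluronan and collagen, differed by 0.14 ± 0.04 (adjusted p = 0.0397) and lost its call in 9 of the 12 (adjusted p up to 0.203). Itga1, the alpha 1 chain, averaged 2.53 ± 0.86 per M on collagen I and 2.10 ± 0.67 per M on collagen IV (SD, n = 4 each; 0.18 ± 0.16, adjusted p = 0.579). The shared chain gene Itgb1 averaged 1267 ± 110 per M on collagen I and 1230 ± 106 per M on collagen IV (0.04 ± 0.04, adjusted p = 0.628). The discoidin domain receptor genes Ddr1 (0.07 ± 0.05, adjusted p = 0.474) and Ddr2 (−0.02 ± 0.05, adjusted p = 0.863) and the integrin gene Itga10 (−0.16 ± 0.12, adjusted p = 0.515) did not pass. Itga10 shares 33.5% of its exon bases with another annotated gene.

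Some laminin genes and laminin receptor genes were higher on collagen I. Of 16 basement membrane genes tested, 4 rose, 1 fell and 11 did not pass (median 0.01), and of 8 laminin-binding receptor genes 3 rose and 5 did not pass (median 0.07). The risers included Lama3 and Lamb3, which encode chains of a laminin that anchors epithelia. Lama3 had 45.0, 31.3, 20.4 and 19.2 per M on collagen I, against 25.0, 17.1, 11.04 and 10.4 per M on collagen IV. Its level differed more between experiments than between collagens, so the groups overlapped, while within experiments the difference was nearly constant (0.83 ± 0.09, adjusted p = 2.9e-06, and 0.506 without the experiment term). Lamb3 differed by 0.27 ± 0.06 (adjusted p = 0.00689, and 0.0522 without experiment 4).

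Both chains of the hemidesmosome integrin, a laminin receptor, moved the same way. Itga6 had 250.4, 295, 208 and 281 per M on collagen I, against 199.5, 227, 165 and 224 per M on collagen IV (0.34 ± 0.07, adjusted p = 0.00365, and 0.0503 without experiment 3). Itgb4 had 115, 87.6, 69.3 and 68.2 per M on collagen I, against 92.1, 67.6, 47.6 and 58.9 per M on collagen IV (0.36 ± 0.07, adjusted p = 0.00435, and 0.0547 without experiment 4). In each experiment the collagen I well was the higher one for both genes, and the groups overlapped. Sdc1, a heparan sulfate proteoglycan gene of the same list, differed by 0.15 and lost its call in 8 of the 12 fits without libraries (adjusted p up to 0.106). Col18a1, a basement membrane collagen gene, had 182, 183, 189 and 193 per M on collagen I, against 142, 128, 125 and 136 per M on collagen IV. These groups did not overlap (0.49 ± 0.07, adjusted p = 5.68e-05, and 0.00418 without the experiment term). The exception in the basement membrane list was Sparc, a collagen-binding matricellular protein gene, at 220.4, 224, 217 and 215 per M on collagen I, against 274, 276, 269.8 and 243 per M on collagen IV (−0.28 ± 0.04, adjusted p = 9.63e-05).

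Other matrix and adhesion lists held calls in both directions. Of 17 fibrillar collagen and assembly genes, 2 rose (Loxl3 and Bmp1) and 3 fell (Col1a1, Col5a1 and Serpinh1), with a median of −0.01, and each of these 5 calls was lost in at least 1 of the 12 fits without libraries (adjusted p up to 0.311). Col1a1, which encodes a chain of collagen I, was near the filter at 0.935 ± 0.56 per M on collagen I and 1.67 ± 0.87 per M on collagen IV (−0.46 ± 0.10, adjusted p = 0.00446, and 0.0563 without experiment 3). Of 6 RGD-binding integrin genes only Itgb6 passed (0.30 ± 0.09, adjusted p = 0.0432, lost in 11 of 12). Of 26 focal adhesion and actin genes, 3 rose and 2 fell (median 0.03). The actin regulator genes Parvb (0.35 ± 0.06, adjusted p = 0.000587) and Vasp (0.23 ± 0.04, adjusted p = 0.00154) were higher, as was the kinase gene Src, lost in 5 of 12 (adjusted p up to 0.0985). The focal adhesion gene Zyx (−0.23 ± 0.04, adjusted p = 0.000753) and the tropomyosin gene Tpm1 (−0.23 ± 0.04, adjusted p = 0.00222) were lower. Of 12 targets of serum response factor and its cofactors, Tpm1 alone passed (median 0.10).

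Target genes of YAP and TEAD and matrix glycoprotein genes moved in both directions. Of 24 YAP and TEAD target genes, 6 fell (Tgfb2, Ctgf, Nuak2, Vgll3, Cyr61 and Ankrd1), 3 rose (Vgll4, Axl and Asap1) and 15 did not pass, with a median of −0.05. Of 15 matrix glycoprotein genes, 4 fell (Wisp1, Thbs1, Ctgf and Cyr61), 3 rose (Ltbp4, Ltbp2 and Ltbp1) and 8 did not pass (median 0.02). The CCN family, small secreted proteins that bind integrins and growth factors, supplied 3 of these falls. Wisp1 (chr15:66891320-66923201) had 23.3, 19.4, 26.9 and 12.3 per M on collagen I, against 44.8, 45.7, 46.6 and 28.9 per M on collagen IV. The groups did not overlap, and Wisp1 on collagen IV was lowest in experiment 5, as it was on collagen I (−1.01 ± 0.10, adjusted p = 9.98e-07, and 0.0527 without the experiment term).

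Ctgf (chr10:24595442-24598683) had 397, 231, 172 and 129.7 per M on collagen I, against 496, 344, 246 and 189 per M on collagen IV (−0.49 ± 0.05, adjusted p = 2.1e-06, and 0.868 without the experiment term). Cyr61 (chr3:145646976-145649981) had 778, 553, 408 and 315 per M on collagen I, against 825, 703, 523 and 394 per M on collagen IV (−0.28 ± 0.06, adjusted p = 0.00659, and 0.0796 without experiment 3). In both genes the level was highest in experiment 2 and lowest in experiment 5 on either collagen, and the groups overlapped. Thbs1, the matricellular thrombospondin gene, had 1144, 857, 916 and 770.3 per M on collagen I, against 1428, 1349, 1317 and 1283 per M on collagen IV, with no overlap (−0.56 ± 0.08, adjusted p = 0.00015, and 0.118 without the experiment term). Nuak2, a kinase gene, averaged 20.4 ± 6.4 per M on collagen I and 28.3 ± 8.0 per M on collagen IV (SD, n = 4 each; −0.46 ± 0.06, adjusted p = 2.77e-05, and 0.731 without the experiment term). Vgll3, a TEAD cofactor gene, differed by −0.41 ± 0.09 (adjusted p = 0.00426) and the muscle ankyrin repeat gene Ankrd1 by −0.16 ± 0.04 (adjusted p = 0.0249, lost in 8 of the 12 fits without libraries, up to 0.152).

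Members of the same list went the other way. Vgll4, which encodes a cofactor that competes with YAP for TEAD factors, had 81.1, 70.0, 78.4 and 68.1 per M on collagen I, against 57.1, 48.2, 49.1 and 41.2 per M on collagen IV. No collagen I library fell within the range of collagen IV (0.60 ± 0.06, adjusted p = 5.36e-07, and 0.0115 without the experiment term). The receptor kinase gene Axl differed by 0.22 ± 0.04 (adjusted p = 0.00197), and Asap1 by 0.15, lost in 11 of 12 (adjusted p up to 0.231). The promoters of Cyr61 and Ankrd1 are shown because they hold the TEAD letters in this window (GGAATG on either strand, capitals). They run over the same span of 250 bases before to 50 after the start, 5′ to 3′ on the strand of the gene. The match lies 103 bases before the start in Cyr61 (named Ccn1 by RefSeq, chr3:145649936-145650235, minus strand), and the first of 2 lies 210 bases before it in Ankrd1 (chr19:36119795-36120094, minus strand).
Cyr61: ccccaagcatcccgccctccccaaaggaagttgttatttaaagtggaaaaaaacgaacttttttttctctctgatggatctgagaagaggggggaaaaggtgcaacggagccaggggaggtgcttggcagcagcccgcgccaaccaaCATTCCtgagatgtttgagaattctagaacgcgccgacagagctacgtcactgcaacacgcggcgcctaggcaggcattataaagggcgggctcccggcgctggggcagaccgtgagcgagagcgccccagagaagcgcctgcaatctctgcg
Ankrd1: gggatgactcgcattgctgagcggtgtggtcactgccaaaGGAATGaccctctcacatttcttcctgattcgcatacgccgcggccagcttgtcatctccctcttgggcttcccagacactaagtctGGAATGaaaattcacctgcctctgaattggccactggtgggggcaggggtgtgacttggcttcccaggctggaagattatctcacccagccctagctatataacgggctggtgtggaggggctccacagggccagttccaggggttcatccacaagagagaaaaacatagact
Of the 6 targets that fell, 4 had a promoter in the table and 3 of these held the letters, the other being Vgll3. They occur in 14.7% of all 32851 windows. The motif was chosen after the values were seen, no match overlapped an AP-1 match, and the letters alone do not show that a factor binds.

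Genes of the TGF-beta family moved in both directions. Of 21 tested, 4 fell (Tgfb2, Inhba and Tgfb3 among them), 2 rose (Tgfb1 and Tgfbr2) and 15 did not pass, with a median of 0.06. Among the ligands, Tgfb2 (chr1:186622792-186705989) had 10.0, 9.30, 12.3 and 11.3 per M on collagen I, against 16.6, 16.2, 20.1 and 17.9 per M on collagen IV. Each collagen I value lay below each collagen IV value (−0.68 ± 0.08, adjusted p = 1.6e-05, and 0.0226 without the experiment term). Tgfb1 had 49.4, 40.1, 49.4 and 39.6 per M on collagen I, against 42.5, 33.4, 37.3 and 28.2 per M on collagen IV, and was the higher on collagen I in all 4 experiments (0.34 ± 0.07, adjusted p = 0.00371, and 0.0522 without experiment 4). Tgfb3 differed by −0.22 and was lost in 3 of 12 (adjusted p up to 0.105), and the activin subunit gene Inhba by −0.28, lost in 10 of 12 (adjusted p up to 0.189). The receptor gene Tgfbr2 had 170.5, 172, 177 and 174 per M on collagen I, against 143, 139, 157 and 151 per M on collagen IV, without overlap (0.23 ± 0.04, adjusted p = 0.00156).

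The latent TGF-beta binding proteins, which tether the inactive ligand in the matrix, were higher on collagen I in 3 of 4 cases, and Ltbp3 did not pass (0.14 ± 0.06, adjusted p = 0.16). Ltbp4 had 76.9, 77.6, 86.2 and 77.9 per M on collagen I, against 57.1, 52.8, 59.8 and 61.0 per M on collagen IV (0.46 ± 0.08, adjusted p = 0.000768). Ltbp2 (0.29 ± 0.06, adjusted p = 0.00277, and 0.0608 without experiment 4) and Ltbp1 (0.25 ± 0.05, adjusted p = 0.00237) differed less. Nbl1, which encodes an antagonist of bone morphogenetic proteins, had 16.7, 13.2, 15.7 and 14.01 per M on collagen I, against 10.98, 6.77, 8.33 and 6.68 per M on collagen IV (0.81 ± 0.08, adjusted p = 1.61e-06, and 0.00187 without the experiment term). Ltbp4 and Nbl1 were each higher in every collagen I library than in any collagen IV library.

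Besides Tgfb2 and Wisp1 above, the 12 lowest genes held 3 others that encode secreted ligands or a carrier of them. The endothelin 1 gene Edn1 (chr13:42301476-42307990) had 11.9, 6.94, 8.80 and 5.06 per M on collagen I, against 20.0, 16.6, 17.7 and 9.39 per M on collagen IV (−0.89 ± 0.10, adjusted p = 5.78e-06, and 0.313 without the experiment term). Pdgfb, a platelet-derived growth factor chain gene, had 168, 142, 179 and 126 per M on collagen I, against 269.6, 245, 261 and 187 per M on collagen IV, with no overlap (−0.64 ± 0.06, adjusted p = 1e-06, and 0.0627 without the experiment term). Fgfbp1, which encodes a carrier of fibroblast growth factors, had 7.85, 6.66, 9.03 and 9.30 per M on collagen I, against 12.2, 9.72, 17.7 and 19.0 per M on collagen IV (−0.73 ± 0.12, adjusted p = 0.000598, and 0.234 without the experiment term). In all 3 genes the collagen IV well was higher in every experiment, and for Edn1 experiment 2 on collagen I lay above experiment 5 on collagen IV.

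A minority of MAPK genes passed, each of them higher on collagen I. Of 26 MAPK feedback and immediate early genes, 6 rose, 0 fell and 20 did not pass, and 21 had a positive difference (median 0.16). Over all 13776 tested genes, 5.07% were called higher and 7057 had a positive difference. Fosl1, a Fos-related AP-1 subunit gene, had 201, 176, 175 and 146 per M on collagen I, against 137, 113, 104 and 89.3 per M on collagen IV, with no overlap (0.66 ± 0.08, adjusted p = 1.07e-05, and 0.0169 without the experiment term). The library kit did not keep the strand, and Fosl1 shares 57.2% of its exon bases with its antisense neighbour Ccdc85b, which averaged 52.8 per M on collagen I and 44.5 per M on collagen IV (0.26, adjusted p = 0.283), so reads from the shared bases cannot be told apart. Jun, the partner AP-1 subunit gene, had 195, 137, 112 and 79.1 per M on collagen I, against 154, 101, 79.9 and 63.6 per M on collagen IV (0.39 ± 0.07, adjusted p = 0.00132, and 0.878 without the experiment term). The feedback inhibitor genes Dusp6 (0.33 ± 0.09), Dusp5 (0.31 ± 0.09), Spred3 (0.31) and Spry2 (0.27 ± 0.07) passed, and were lost in 9, 8, 4 and 7 of the 12 fits without libraries (adjusted p up to 0.22).

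Of 10 genes of the epidermal growth factor family and its regulators, 3 rose and 7 did not pass (median 0.12). Errfi1, a feedback inhibitor of the receptor, had 233, 152, 169 and 167 per M on collagen I, against 169.8, 104, 117 and 115 per M on collagen IV (0.51 ± 0.07, adjusted p = 0.000107, and 0.103 without the experiment term). The ligand gene Tgfa averaged 51.8 ± 6.7 per M on collagen I and 42.0 ± 6.0 per M on collagen IV (SD, n = 4 each; 0.30 ± 0.07, adjusted p = 0.00722, and 0.054 without experiment 3 or 0.0522 without collagen IV of experiment 4). Lrig1, a negative regulator, differed by 0.18 and was lost in 8 of 12 (adjusted p up to 0.113). The collagen I well was the higher one in all 4 experiments for Errfi1 and Tgfa, and the groups overlapped.

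Cholesterol biosynthesis was the list with the most calls, all of them lower on collagen I. Of 23 genes tested, 13 fell, 0 rose and 10 did not pass, and 21 had a negative difference (median −0.22). Over all 13776 tested genes, 2.36% were called lower and 6719 had a negative difference. The synthase gene Hmgcs1 (−0.33 ± 0.06, adjusted p = 0.00187) and the squalene epoxidase gene Sqle (−0.22 ± 0.04, adjusted p = 0.00247) were among them. Idi1, the isopentenyl diphosphate isomerase gene, had 53.5, 56.7, 60.0 and 67.0 per M on collagen I, against 70.8, 78.6, 75.8 and 89.3 per M on collagen IV. Cyp51, the lanosterol demethylase gene, had 61.1, 53.2, 53.8 and 58.1 per M on collagen I, against 78.8, 64.7, 71.0 and 78.8 per M on collagen IV. Neither gene's groups overlapped, at −0.40 ± 0.07 for Idi1 (adjusted p = 0.00096) and −0.37 ± 0.05 for Cyp51 (adjusted p = 0.000126).

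Of the 13, 7 passed in all 12 fits without libraries (Idi1, Cyp51, Hsd17b7, Hmgcs1 and Sqle among them). Lss was lost without experiment 5 (adjusted p = 0.0726), and Fdps, Msmo1, Nsdhl, Insig1 and the regulator gene Srebf2 were lost in 4 to 11 of the 12 (adjusted p up to 0.184). Without the experiment term 0 of the 13 passed, while quantile normalisation left 12 and the other scaling 13. Fatty acid genes leaned the same way: of 16, 4 fell, 0 rose and 12 did not pass (median −0.07). The desaturase gene Scd2 had 409, 412, 613 and 759.9 per M on collagen I, against 562, 507, 826 and 1016 per M on collagen IV (−0.40 ± 0.07, adjusted p = 0.00141, and 0.827 without the experiment term). Scd1 differed by −0.34 ± 0.08 (adjusted p = 0.00817, and 0.0691 without experiment 5), Fads2 by −0.20 (lost in 3 of 12, up to 0.101) and Acsl3 by −0.16 (lost in 6 of 12, up to 0.164).

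**Figure D3:**
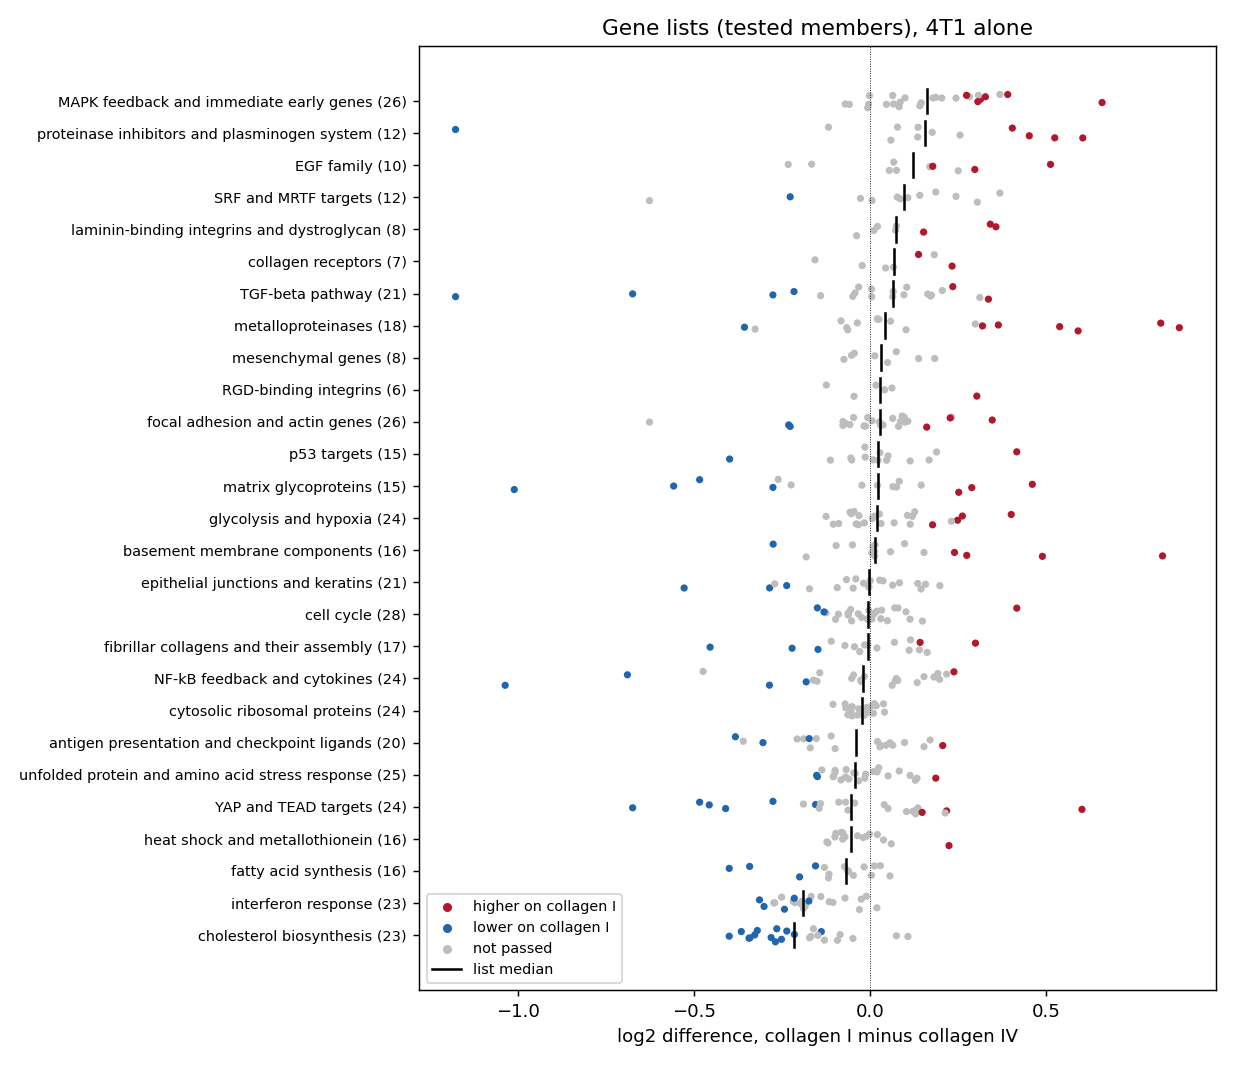
Log2 difference, collagen I minus collagen IV, of each tested member of the gene lists, with the number tested in parentheses. Points are red where higher on collagen I, blue where lower and grey where not passed, and black bars are list medians, from 0.16 for MAPK feedback and immediate early genes to −0.22 for cholesterol biosynthesis. Beside these, 7.43% of all tested genes passed, with a median of 0.0029.

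A minority of interferon response genes passed, each of them lower on collagen I. Of 23 interferon response genes, 5 fell, 0 rose and 18 did not pass, and 22 had a negative difference (median −0.19). Over all 13776 tested genes, 2.36% were called lower and 6719 had a negative difference. The transcription factor gene Irf1 had 41.0, 54.3, 86.2 and 71.3 per M on collagen I, against 51.4, 73.1, 102 and 86.4 per M on collagen IV (−0.31 ± 0.05, adjusted p = 0.000516, and 0.873 without the experiment term). Bst2, Irgm1, Ifi35 and Ddx58 also passed and were each lost in 6 or 7 of the 12 fits without libraries (adjusted p up to 0.195). Of the 5, Irf1 passed in all 12.

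Of 24 NF-kB feedback and cytokine genes, 4 fell (Ccl2, Icam1, Vcam1 and Csf1), 1 rose (Tnfaip3) and 19 did not pass (median −0.02). The chemokine gene Ccl2 had 2.09, 0.932, 1.80 and 0.918 per M on collagen I, against 6.22, 3.59, 3.90 and 2.50 per M on collagen IV. The groups did not overlap although the levels were low (−1.04 ± 0.15, adjusted p = 9.63e-05, and 0.131 without the experiment term). Icam1, an adhesion receptor for leukocyte integrins, had 14.7, 5.78, 15.2 and 6.96 per M on collagen I, against 25.7, 12.8, 24.7 and 8.77 per M on collagen IV (−0.69 ± 0.14, adjusted p = 0.00442, 0.0623 without experiment 3 and 0.752 without the experiment term). Vcam1, a related receptor gene, had 95.0, 97.4, 106 and 103 per M on collagen I, against 118, 125, 128 and 119 per M on collagen IV. Vcam1 did not overlap between the groups (−0.29 ± 0.05, adjusted p = 0.000971). Csf1, a macrophage growth factor gene, differed by −0.18 ± 0.05 (lost in 7 of 12, up to 0.18), and Tnfaip3, the NF-kB inhibitor gene, by 0.24 ± 0.03 (adjusted p = 0.000129).

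Of 20 antigen presentation and checkpoint ligand genes, 3 fell, 1 rose and 16 did not pass (median −0.04). The immunoproteasome subunit gene Psmb10 averaged 53.3 ± 7.3 per M on collagen I and 70.1 ± 11.1 per M on collagen IV (SD, n = 4 each; −0.38 ± 0.08, adjusted p = 0.00477, lost without experiments 2 and 3 at 0.0531 and 0.0756). The peptide-trimming enzyme gene Erap1 averaged 48.5 ± 3.1 per M on collagen I and 60.1 ± 3.9 per M on collagen IV (−0.31 ± 0.06, adjusted p = 0.00223, and 0.045 without the experiment term). Nectin2 fell by 0.17 and Cd47, which carries the signal against phagocytosis, rose by 0.21 ± 0.06 (adjusted p = 0.03), each lost in 9 of the 12 fits without libraries (adjusted p up to 0.196). Erap1 shares 11.5% of its exon bases with Cast, which did not pass (0.08, adjusted p = 0.371).

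Epithelial genes changed in part, and mesenchymal genes did not pass. Of 21 junction and keratin genes, 3 fell, 0 rose and 18 did not pass (median 0.00, −0.005), and 0 of 8 mesenchymal genes passed (median 0.03). Krt14, a basal keratin gene, had 187, 146, 104 and 68.0 per M on collagen I, against 266, 213, 135 and 111 per M on collagen IV (−0.53 ± 0.06, adjusted p = 1.41e-05, and 0.832 without the experiment term). Cdh1, the E-cadherin gene, had 493, 401, 373 and 361 per M on collagen I, against 576, 483, 442 and 481 per M on collagen IV (−0.29 ± 0.05, adjusted p = 0.0004, and 0.456 without the experiment term). Both genes were lower on collagen I in each experiment, with overlapping groups. Krt19 differed by −0.24 ± 0.06 (adjusted p = 0.0207, lost in 6 of 12, up to 0.128), while the keratin genes Krt8 (0.16 ± 0.06, adjusted p = 0.14) and Krt18 (0.20 ± 0.07, adjusted p = 0.108) did not pass.

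Growth, stress and energy lists held 0 to 4 calls each, and 7.43% of all tested genes passed. Of 28 cell cycle genes, the inhibitor gene Cdkn1a rose (0.42 ± 0.10, adjusted p = 0.0113, lost in 4 of 12, up to 0.0886) and the mitotic kinase genes Aurka and Plk1 fell by 0.15 and 0.13 (lost in 9 and 10 of 12, up to 0.216), with a median of −0.01. Of 15 p53 targets, Cdkn1a rose and the death receptor gene Fas fell (−0.40 ± 0.09, adjusted p = 0.00998, lost in 4 of 12, up to 0.102), with a median of 0.02. Of 24 glycolysis and hypoxia genes, 4 rose and 20 did not pass (median 0.02). Egln3, an oxygen-sensing prolyl hydroxylase gene, had 38.9, 41.5, 39.3 and 39.5 per M on collagen I, against 31.7, 27.2, 30.0 and 30.9 per M on collagen IV. Its groups did not overlap, and it was the one of the 4 that passed in all 12 fits without libraries (0.40 ± 0.07, adjusted p = 0.000971). Bnip3 differed by 0.25 ± 0.06 (adjusted p = 0.00755, and 0.0778 and 0.0659 without experiments 2 and 4), Car9 by 0.26 (lost in 8 of 12, up to 0.15) and Slc2a1 by 0.18 (lost in 11 of 12, up to 0.216). Of 24 ribosomal protein genes 0 passed (median −0.02). Of 25 stress response genes, Xbp1 rose and Psat1 and Slc3a2 fell, all by under 0.2 and all lost in 9 or 10 of 12 (median −0.04), and of 16 heat shock and metallothionein genes Srxn1 alone passed (0.22, lost in 7 of 12, median −0.05).

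Genes outside these lists were among those with the largest differences. Nptx1 (chr11:119538719-119547753), a pentraxin gene best known from neurons, had 35.2, 32.3, 32.2 and 46.8 per M on collagen I, against 19.3, 13.8, 13.8 and 23.02 per M on collagen IV (1.04 ± 0.17, adjusted p = 0.0004, and 0.0415 without the experiment term). St3gal4 (chr9:35046576-35119268), a sialyltransferase gene, had 125, 121, 109 and 123 per M on collagen I, against 78.7, 70.5, 57.6 and 69.6 per M on collagen IV (0.79 ± 0.05, adjusted p = 1.14e-08, and 2.74e-05 without the experiment term). Both genes were separated between the collagens in every library. St3gal4 shares 14.1% of its exon bases with 4930581F22Rik, which was also higher on collagen I (0.30, adjusted p = 0.0167). Eya2, a transcriptional coactivator gene, had 10.7, 8.31, 7.83 and 12.3 per M on collagen I, against 7.33, 2.97, 2.76 and 6.33 per M on collagen IV (0.95 ± 0.21, adjusted p = 0.00532, and 0.0671 and 0.0522 without experiments 3 and 4).

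The other genes among the 12 highest were the cadherin gene Cdh17 (0.83 ± 0.09), the stanniocalcin hormone gene Stc1 (0.83 ± 0.10), the R-spondin receptor gene Lgr6 (0.81 ± 0.11), Fam102a (0.74 ± 0.10) and Clip4 (0.73 ± 0.07), each with adjusted p under 0.05 in all 12 fits without libraries and with no overlap between groups. Of these, Stc1 alone did not pass without the experiment term (adjusted p = 0.103). Among the 12 lowest, the complement protease gene Masp1 had 19.8, 17.6, 22.96 and 15.8 per M on collagen I, against 35.8, 34.5, 37.97 and 30.2 per M on collagen IV (−0.84 ± 0.06, adjusted p = 1.14e-08, and 0.0115 without the experiment term). The ephrin receptor gene Epha1 averaged 44.7 ± 7.9 per M on collagen I and 79.0 ± 10.9 per M on collagen IV (SD, n = 4 each; −0.82 ± 0.06, adjusted p = 2.08e-08). Neither overlapped between the collagens. Epha1 shares 6.0% of its exon bases with the more abundant antisense gene Zyx, which was also lower on collagen I (306 per M on collagen I and 361 per M on collagen IV, −0.23, adjusted p = 0.000753). The protease gene Prss23 (−0.82 ± 0.12), the peripheral myelin protein gene Pmp22 (−0.78 ± 0.08) and the annexin gene Anxa8 (−0.74 ± 0.09) were also in the set. Without the experiment term their adjusted p was 0.182, 0.506 and 0.411, and the groups of Pmp22 and Anxa8 overlapped. Prss23 shares 22.9% of its exon bases with the antisense gene Prss23os, which was not tested.

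Levels on uncoated plastic place these differences. Of 23 genes with the largest differences (12 higher and 11 lower), 17 had collagen I and collagen IV on opposite sides of uncoated plastic by at least 0.1 each, 8 of the higher genes and 9 of the lower. These genes were chosen for a large difference between the collagens in the same fit, which by itself favours opposite sides. The share over all tested genes was not counted, so the 17 only describe these genes. Wisp1, for example, differed from uncoated plastic by −0.64 ± 0.10 on collagen I and 0.37 ± 0.10 on collagen IV. Stc1 differed from it by 0.48 ± 0.09 on collagen I and −0.34 ± 0.09 on collagen IV. In Nptx1, Mmp3, Mmp10 and Eya2 collagen IV lay farther from uncoated plastic: Mmp3 differed from it by −0.79 ± 0.22 on collagen I and −1.61 ± 0.22 on collagen IV, while Mmp10 was at −0.06 ± 0.16 on collagen I and −0.94 ± 0.16 on collagen IV. In Fgfbp1 and Pdgfb collagen I lay farther, with Pdgfb at −0.59 ± 0.06 on collagen I and 0.05 ± 0.06 on collagen IV. The contrasts with plastic share their uncoated wells, so they are given as levels and not counted as separate evidence. The library tag of the uncoated well differed from that of the collagen wells in experiments 2, 3 and 5. In those experiments coat and tag cannot be told apart in the contrasts with plastic.

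**Figure D4:**
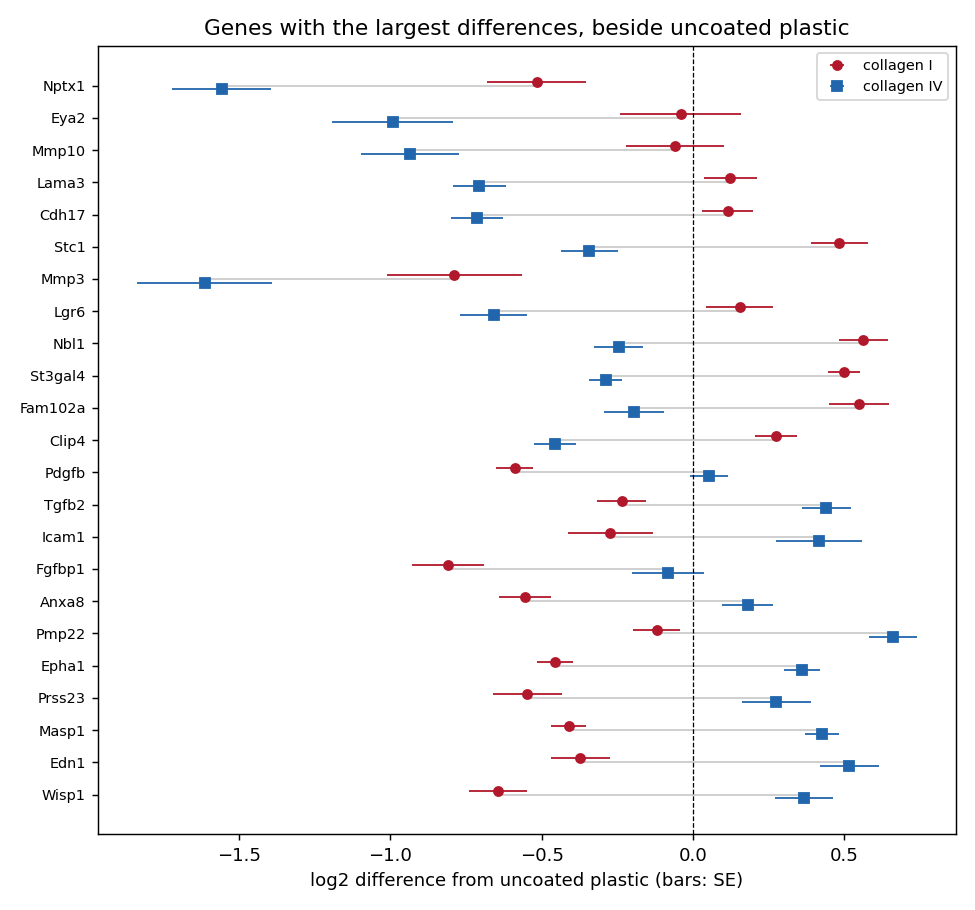
Log2 difference from uncoated plastic (± SE, from the 22 libraries of 4T1 alone) of 23 genes with the largest differences between the collagens, with collagen I as red circles and collagen IV as blue squares. The dashed line marks uncoated plastic; 17 of the 23 genes lie on opposite sides of it by at least 0.1 each, and Nptx1, Mmp3, Mmp10, Eya2 and Fgfbp1 lie to its left on both collagens.

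An earlier comparison of collagen I with uncoated plastic in these data had named 14 genes, and it used the same collagen I libraries, so the following counts are not independent evidence. Between the collagens 10 of them rose, 2 fell and 2 did not pass (median 0.51). Rab31, a membrane traffic GTPase gene, had 191, 185, 171 and 188 per M on collagen I, against 139.7, 130.1, 108 and 118 per M on collagen IV (0.57 ± 0.05, adjusted p = 1.21e-07). Ddx41, an RNA helicase gene, had 54.7, 57.0, 57.2 and 60.8 per M on collagen I, against 37.6, 38.2, 37.1 and 42.9 per M on collagen IV (0.55 ± 0.05, adjusted p = 8.78e-07). Neither gene overlapped between the groups. The scavenger receptor family gene Scarf2 (0.70 ± 0.09) and the diacylglycerol kinase gene Dgkh (0.47 ± 0.08) were also higher, with Clu (−0.26 ± 0.08, adjusted p = 0.0693) and Il18rap (−0.17 ± 0.09, adjusted p = 0.316) not passing. For Clu and Il18rap the levels on both collagens lay below uncoated plastic, at −0.67 ± 0.08 on collagen I and −0.41 ± 0.08 on collagen IV for Clu, and at −0.56 ± 0.09 on collagen I and −0.40 ± 0.09 on collagen IV for Il18rap. The difference in library tag between uncoated and collagen wells limits these values too.

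The differences between the collagens were also read in co-cultures with T cells, which are other wells of experiments 2, 4 and 5. These libraries hold a variable amount of T cell RNA, so a difference can mix cell composition with levels in 4T1 cells. In experiment 4, genes that did not pass in 4T1 alone also differed between these wells, such as Itgb1 (0.44), Ddr2 (0.34) and Ddr1 (−0.37). The part that composition plays was not tested. Of the same 23 genes, 21 had the same sign in all 3 co-culture pairs as in 4T1 alone. Tgfb2 had 9.77, 12.7 and 10.2 per M on collagen I with T cells, against 17.5, 16.4 and 20.0 per M on collagen IV with T cells. Mmp14 had 204, 150.4 and 157 per M on collagen I with T cells, against 144, 75.5 and 109.5 per M on collagen IV with T cells. The exceptions were Eya2 and Fam102a, each of the opposite sign in the pair of experiment 4, where Fam102a had 52.5 per M on collagen I with T cells and 169 per M on collagen IV with T cells. Of the 1023 genes that passed in 4T1 alone, 886 (86.6%) had a mean co-culture difference of the same sign, against 57.9% (7385 of 12753) of the genes that had not passed.

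Whether T cells changed the difference was tested directly. Of 14701 genes, 0 passed for the difference of differences by limma (0%), 194 had an unadjusted p under 0.05, and edgeR on the recovered reads also gave 0. Among the genes named here, the lowest unadjusted p was 0.0181, for Ccl2 (−0.54 ± 0.15 with T cells and −1.04 ± 0.13 without, adjusted p = 0.999), and Dgkh was next at 0.0398. With 3 co-cultures on collagen I, this does not show that the differences were alike.

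**Figure D5:**
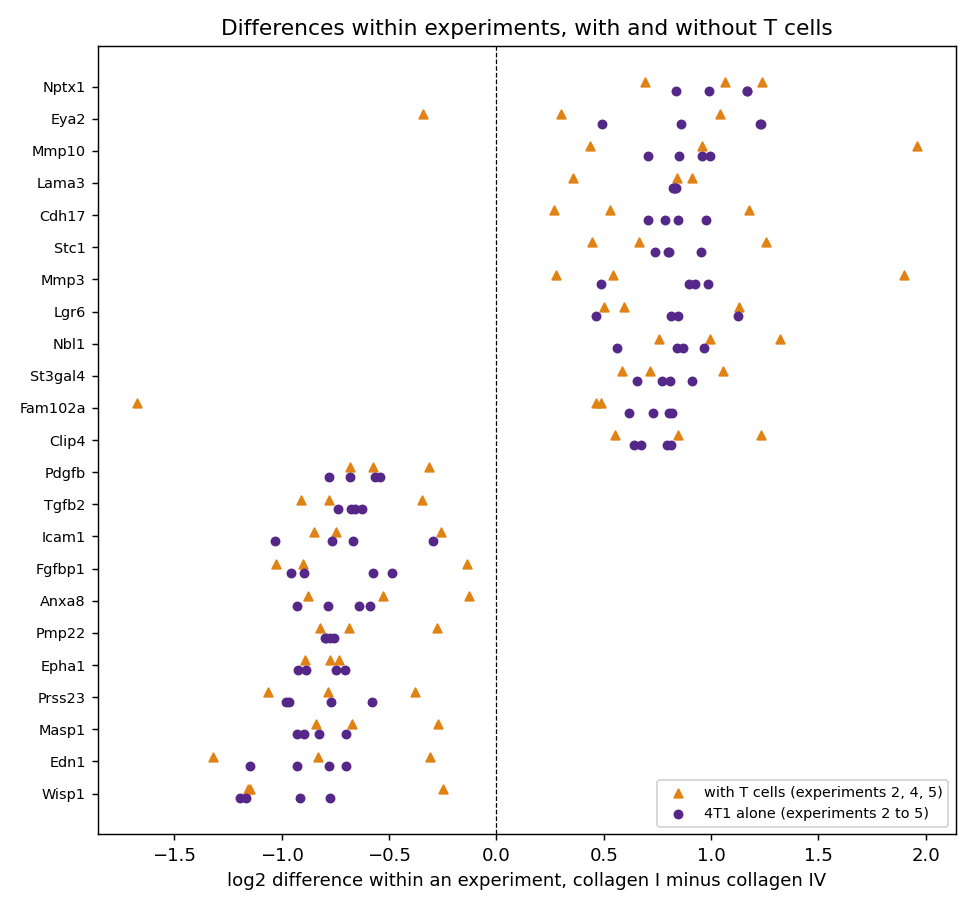
Log2 difference within an experiment, collagen I minus collagen IV, for 23 genes with the largest differences, with T cells (orange triangles, experiments 2, 4 and 5) and in 4T1 alone (purple circles, experiments 2 to 5). All circles of a gene lie on one side of the dashed line at 0, and so do all triangles except those of Eya2 and Fam102a in experiment 4.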

How the data were processed

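RNA of 4T1 cultures was sequenced from unstranded TruSeq libraries, single end. The authors deposited 1 signal table, the reads of each gene over library size after scaling (per M). STAR 2.6, featureCounts, edgeR 3.31.7 and the mm10 build are named per the submitters' processing notes. Of 21349 lines, 21347 genes were kept (1 duplicated line and 1 gene with a non-number left out); 19 symbols had turned into dates. Multiplying by depth gave whole reads for 100% of positive values within 0.01, and edgeR called 1043 genes on these reads. No sample column was left unused.

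Genes with a value of at least 1 in at least 3 of 22 libraries of 4T1 alone were tested with limma 3.58.1 (R 4.3.3, eBayes with intensity trend) on log2(value + 1), with substrate means and the experiment as a term (13 residual degrees of freedom). Benjamini-Hochberg adjustment ran over all genes tested, with a threshold of 0.05. The comparison is matched by experiment number, which the labels give and describe as biological replicates. Same-numbered collagen wells deviated together (correlation 0.567 to 0.87 over 4 pairs, against a median of −0.187 over 12 other pairs). Alternatives used edgeR 4.0.16, DESeq2 1.42.0, other filters, pseudocounts, scalings and libraries. Floors of 3 reads cover counting error only.

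Genes named are the 12 with the largest difference in each direction among those passing, with 1 sign in 4 of 4 pairs and a mean of at least 5, all collagen receptors, up to 3 members per direction of each list, and the genes of an earlier collagen I comparison. Mmp13, Cyr61, Ankrd1, Lamb3, Vgll3, Serpine2, Cd68 and the remaining called list members were chosen after their values were seen. Members and lists were chosen with earlier results of these data known. Of 137 genes followed, 29 share at least 5% of their exon bases with another gene, whose reads these unstranded libraries cannot separate. Some genes that these rules name are not reported here. Gene coordinates are GENCODE vM21 on mm10, and promoters are RefSeq GRCm38.p6.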

Additional observations from a re-analysis of the deposited data

Results flagged for a closer look

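In 11 of 274 groups of 4 libraries, for the genes named here, 1 library stood apart from the other 3, its gap to them being most of the group's range (beyond Dixon's 95% critical value). Chance gives about 1 in 20 such groups. On collagen I, Mmp10 was highest in experiment 2 (12.65 per M, others 8.34 to 8.497), Ltbp4 highest in experiment 4 (86.18, others 76.89 to 77.87) and Acsl3 highest in experiment 5 (66.11, others 54.96 to 56.46). Also on collagen I, Inhba was lowest in experiment 5 (71.27 per M, others 82.14 to 83.51), Car9 lowest in experiment 4 (17.13, others 19.71 to 20.13) and Insig1 lowest in experiment 3 (32.4, others 48.32 to 51.45). On collagen IV, Insig1 was lowest in experiment 3 as well (40.18 per M, others 63.02 to 66.92). Experiment 5 on collagen IV was lowest for Wisp1 (28.85 per M, others 44.85 to 46.6), Sparc (243.5, others 269.8 to 275.5) and Tnfaip3 (175.5, others 185.7 to 187.4). Itgb6 on collagen IV was highest in experiment 2 (9.361 per M, others 5.621 to 6.094).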

How the results depend on the processing

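Without the replicate block 105 genes passed, all of them among the 1023, and 41 in all 40 libraries without the block. With the block, all 40 libraries gave 306 genes (305 shared) and the 8 collagen libraries alone gave 2763 (1021 shared). The cause of these changes was not tested. Leaving out an experiment or a library gave 389 to 1227 genes, with counts more than 1.5 times lower without experiments 2, 3, 4 or 5, collagen I of experiment 2, or collagen IV of experiments 3 or 4. The other alternatives (pseudocount, filter, scaling, intensity trend, edgeR, DESeq2) gave 864 to 1182 genes. No gene called both in the reported fit and in one of these alternatives had opposite signs in them. Of 128 named genes that passed, 65 did so in all 12 fits without libraries and 22 without the block; of the 24 with the largest differences, 21 and 11. Ddr2, not called, changed sign without experiment 3 (0.0088), in a range of −0.054 to 0.0088 over the fits that left out libraries. The RGD-binding integrin list, with 1 higher call, had 0 higher and 1 lower after median scaling. Depth limits genes near the floor of 0.0683 to 0.148 per M, and 4 experiments limit small differences.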
